A study of Mus musculus with 2 samples.

Results

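The genes described here are the 8 that write, copy, oxidise or remove methyl groups on DNA: Dnmt1, Uhrf1, Dnmt3a, Dnmt3b, Tet1, Tet2, Tet3 and Tdg. They were taken by symbol from a deposited table of 23227 genes, and all 8 symbols were found. PolyA RNA was sequenced from immortalised adult mouse mesenchymal stem cells (MSCs), which the labels also call fibroblasts, grown in alpha-MEM with 10% fetal bovine serum and lysed before confluence. The wild-type (WT) line carried Dicer f/f, floxed alleles that leave Dicer in place, and the knockout (KO) line was Dicer -/-. Both lines were immortalised and monoclonal, so clone and genotype cannot be told apart. Neither the agent that deleted the alleles nor the age of the source animals is given in those labels.

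Methylation of cytosine in CpG pairs is copied onto the new strand after replication by DNMT1, which UHRF1 brings to half-methylated sites. DNMT3A and DNMT3B place new methyl groups, and TET1, TET2 and TET3 oxidise them so that the glycosylase TDG can cut the modified base out. Dicer cuts precursor hairpins into mature microRNAs, which lower messages with matching seed sites, and the miR-29 family is known for targeting DNMT3A and DNMT3B. The comparison of both lines asks how messages change without Dicer.

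The labels list 1 sample per genotype, but the deposited means of each genotype resolve into whole reads of 2 libraries, called here the deeper and the shallower. Summed over the genes of the deposited table, they came to 15369250 and 14135422 reads in WT, and 15718369 and 14969532 in KO. Nothing says whether the libraries of a genotype came from separate cultures, so the spread and the p-values may be technical. Libraries of like depth rank deviated together: across 11710 genes, which are not independent replicates, the deeper-minus-shallower log2 difference in WT and that in KO had a Pearson r of 0.57. For that reason the ratio within each depth rank is given for the members. Levels are normalised reads, that is, reads divided by the authors' size factor of the library. Dicer1, the targeted gene, was at 804 and 943 normalised reads in WT and at 573 and 557 in KO, a ratio of 0.647 with an adjusted p of 0.497 in the authors' deposited table. A total over the gene cannot show whether the deleted exons are missing. Of 9 MSC and fibroblast markers, 8 had a mean of at least 20 normalised reads, with a summed level of 174448 in WT and 98625 in KO, and Thy1 was listed at 0. Col1a1, Col1a2 and Vim carry most of that sum. The authors' deposited table calls Col1a1 and Col1a2 lower in KO, with adjusted p-values of 0.0121 and 0.0419. Without being called there, Vim (44382 in WT and 30576 in KO), Eng (2409 and 1689) and Pdgfra (864 and 635) had lower means in KO. Pdgfrb (4550 and 6429), Cd44 (3204 and 3550) and Nt5e (119 and 126) had higher ones, also without being called. The part of these marker differences in the other results was not tested. Endothelial and pluripotent markers summed to at most 14.4 in either line, haematopoietic markers to 30.6 and epithelial markers to 34.6. Cd68 (26.9 in WT and 29.1 in KO) and Krt8 (26.3 and 34.2) made up most of the last 2 sums, Ptprc was at no more than 1.46, and Epcam and Zfp42 were at 0.

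Genes were called by size on the KO over WT ratio: 2 or more counted as higher, 0.5 or less as lower, provided that 1 lay outside the 95% exact interval (Clopper-Pearson). This interval covers counting error only and compares the libraries, not the conditions. The rule was applied to the 11710 genes with a mean of at least 20 normalised reads over both lines. It called 8.92% of them higher in KO and 8.56% lower. The authors' adjusted p of at most 0.1 called 5.56% higher and 5.34% lower, and limma with Benjamini-Hochberg adjustment at 0.05 called 4.61% higher and 4.14% lower. WT and KO libraries did not overlap in a larger share of the tested genes, 30.4% with KO on top and 28.8% with KO at the bottom. Of the 8 members, 7 passed the filter. By size, 2 were higher in KO (Dnmt3a and Tet3), 1 was lower (Tet1) and 4 were neither. The authors' adjusted p and limma each called Dnmt3a and Tet3 higher and no member lower. At an unadjusted p under 0.05, limma had Dnmt1 (0.00931) and Tet1 (0.0235) lower and Tet2 (0.0140) higher, beside Dnmt3a and Tet3. The authors' deposited table had Dnmt1 and Tet1 lower at 0.0409 and 0.0136 and Tet2 higher at 0.0133. That threshold is met by 14.9% of all tested genes higher and 14.2% lower in limma, and by 9.46% and 9.91% in the authors' table. A limma fit with the depth rank of the libraries as a block, added after the data were seen, also called Dnmt1 (adjusted p = 0.0114) and Tet1 (0.0221) lower and Tet2 (0.00820) higher. It called 18.5% of all tested genes higher and 17.7% lower. In each of the 7 tested members the libraries of WT and KO did not overlap, 4 being above WT and 3 below. Fewer cells carrying a message and less of it per cell cannot be told apart in such bulk RNA.

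**Figure D1:**
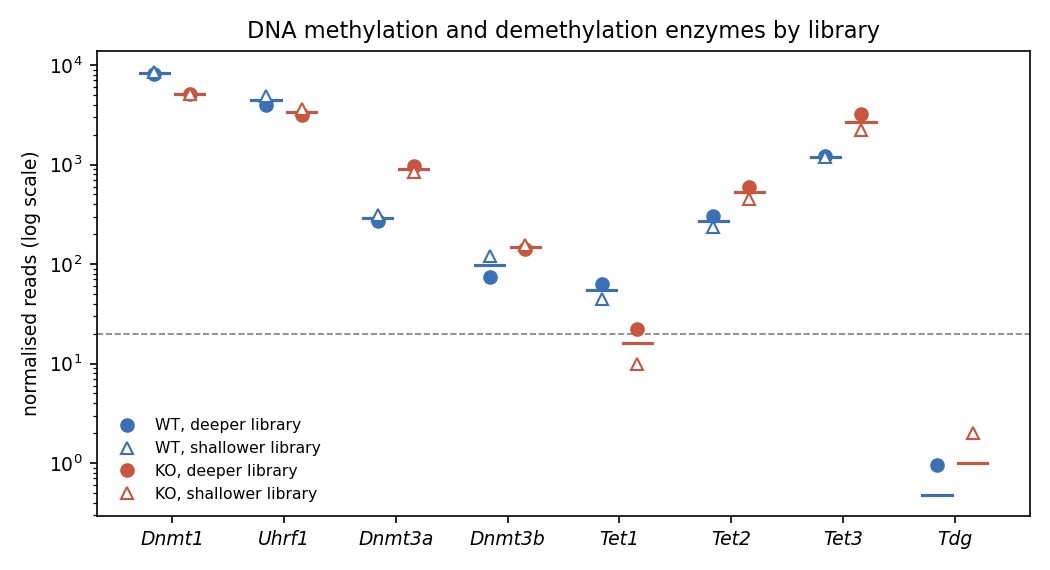
Normalised reads of each enzyme gene (log axis) in the deeper (circles) and shallower (triangles) libraries of WT (blue) and KO (red), with the mean of each line as a bar. The dashed line marks the filter at 20 normalised reads; for Tdg the libraries at 0 are not drawn. Dnmt1, Uhrf1 and Tet1 lie lower in KO, and Dnmt3a, Dnmt3b, Tet2 and Tet3 higher.

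The copying machinery was the most abundant part of the set and lay lower in KO, by less than 2-fold. Dnmt1, the maintenance methyltransferase, was at 8058 and 8533 normalised reads in WT and at 5065 and 5092 in KO. The libraries of a line differed by at most 1.06-fold, and the lowest WT library was 1.58-fold above the highest KO library. The ratio of the means was 0.612 (counting interval 0.597 to 0.627), a level 1.63-fold lower in KO. It was 0.629 between the deeper libraries and 0.597 between the shallower ones. Its log2 change in limma was -0.71 ± 0.17 (SE, n = 2 libraries per line), with an adjusted p of 0.0718. In the authors' deposited table the adjusted p was 0.310, so Dnmt1 passed neither of these nor the size rule; the fit with depth rank as a block did call it.

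Uhrf1, the reader of half-methylated DNA, was at 3946 and 4863 normalised reads in WT and at 3113 and 3626 in KO. Both KO libraries were lower, but the gap between the lines was 1.09-fold, smaller than the 1.23-fold gap between the WT libraries. The ratio was 0.765 (0.741 to 0.790), and it was 0.789 between the deeper and 0.746 between the shallower libraries, with an adjusted p of 0.838 in the authors' deposited table and 0.267 in limma. Of the 50-base windows in its longest transcript, 18.9% also occur in genes at another locus, nearly all of them in Gm5648, so its count is uncertain to that extent. The same comparison found no shared window in Dnmt1, Dnmt3a, Tet2 or Tet3.

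Dnmt3a rose in KO by every rule used and had the highest ratio of the tested members. This de novo methyltransferase was at 272 and 309 normalised reads in WT and at 970.4 and 843 in KO. The lowest KO library was 2.72-fold above the highest WT library, while libraries of a line differed by at most 1.15-fold. The ratio was 3.12 (2.84 to 3.43), and it was 3.57 between the deeper and 2.72 between the shallower libraries. The authors' deposited table gives it an adjusted p of 5.15e-04. In limma the log2 change was 1.64 ± 0.19 (SE, n = 2 libraries per line), with an adjusted p of 0.0180.

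Dnmt3b, its close relative, was at 74.2 and 119.96 normalised reads in WT and at 141 and 155 in KO. The KO libraries were higher, but the gap between the lines was 1.17-fold against 1.62-fold between the WT libraries. The ratio was 1.52 (1.27 to 1.84), with 1.90 between the deeper and 1.29 between the shallower libraries, and it ranged from 1.23 to 1.99 when a library was left out. Neither the authors' deposited table (adjusted p = 0.690) nor limma (adjusted p = 0.281) called it. Dnmt3c, a neighbouring gene on chromosome 2, shares 11.5% of its 50-base windows, so part of the count could be split between them.

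Of the oxidising enzymes, Tet3 rose, Tet1 was lower by size at a low level, and Tet2 lay just under 2-fold higher. Tet3 was at 1207 and 1191 normalised reads in WT and at 3205 and 2199 in KO. Both KO libraries were well above WT, yet they differed from each other by 1.46-fold. The ratio was 2.25 (2.15 to 2.37), with 2.66 between the deeper and 1.85 between the shallower libraries. The authors' deposited table gives an adjusted p of 0.0331, and limma gave 0.0493, where the log2 change was 1.15 ± 0.23 (SE, n = 2 libraries per line). Without the deeper KO library the ratio was 1.83, which no longer passed the size rule.

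Tet2 was at 303 and 235 normalised reads in WT and at 601 and 448 in KO. The KO libraries lay higher, the lowest of them 1.48-fold above the highest WT library. The ratio was 1.95 (1.75 to 2.17), with 1.98 between the deeper and 1.90 between the shallower libraries. The authors' deposited table gives an adjusted p of 0.145, and limma gave 0.0880, or 0.00820 with depth rank as a block. Its place under the 2-fold threshold was narrow: the ratio was 2.23 without the deeper WT library, 2.23 without the shallower KO library and 2.03 after scaling by total reads.

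Tet1 moved the other way. It had 66 and 40 reads in WT and 24 and 10 in KO, or 63.6 and 44.8 normalised reads against 22.1 and 9.95. Both KO libraries were lower, with a gap of 2.03-fold between the lines, although the KO libraries themselves differed by 2.22-fold. The ratio was 0.295 (0.194 to 0.438), a level 3.39-fold lower in KO. It was 0.347 between the deeper and 0.222 between the shallower libraries, and 0.183 to 0.407 when a library was left out. The authors' deposited table gives an adjusted p of 0.146 and limma gave 0.116, so neither called it, whereas the size rule and limma with depth rank as a block (0.0221) did. Tet1 was also near the filter, and a filter at 50 normalised reads removed it.

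Tdg, the glycosylase that removes oxidised methylcytosine, was listed near 0, with 1 and 0 reads in WT and 0 and 2 in KO. A count of 0 allows up to 3 reads, and both lines were at or under that floor, so no ratio is given. Of the 50-base windows in its longest transcript, 57.1% also occur in genes at another locus, among them Tdg-ps (47.4%), Gm9855 (25.4%) and Gm5597 (24.1%). Reads from such windows can be dropped or assigned elsewhere, depending on counting, and the part of this in the low count was not tested. The level of Tdg is therefore uncertain, and its near-absence from the table does not show that the message was absent.

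**Figure D2:**
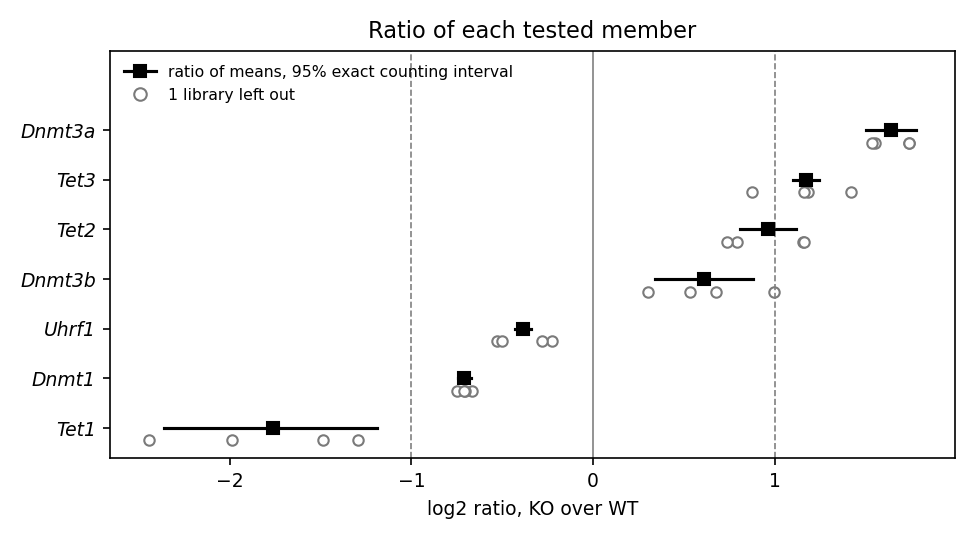
Log2 ratio of KO over WT for the 7 tested enzymes (squares) with the 95% exact counting interval (lines), and the ratio with each library left out in turn (open circles). Dashed lines mark 2-fold. Dnmt3a stays above 2-fold and Tet1 below -1 in all 4 omissions, while Tet2 and Tet3 cross the 2-fold line.

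The 8 genes are spread over 7 chromosomes in GENCODE M21 (GRCm38). Dnmt1 lies at chr9:20907209-20959888 and Uhrf1 at chr17:56303321-56323486. Dnmt3a lies at chr12:3806007-3914443 and Dnmt3b at chr2:153649450-153687730. Tet1 (chr10:62804570-62908996) shares its chromosome with Tdg (chr10:82629828-82650799), while Tet2 lies at chr3:133463679-133545139 and Tet3 at chr6:83362373-83459084.

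Levels can be compared between genes only per length, here normalised reads per kilobase of the longest coding transcript. Which transcripts the lines express was not analysed here, and a shorter one would give a higher level per kilobase. The longest annotated transcript and 3′ UTR have 9685 and 6696 bases in Dnmt3a, against 5870 and 312 in Dnmt1. Orders, shares and ratios between members rest on this choice of length. In WT the order of the mean levels per kilobase was Dnmt1 (1413), Uhrf1 (1228), Tet3 (110), Dnmt3a (30.0), Tet2 (29.3), Dnmt3b (22.5) and Tet1 (3.77). Tet2 cannot be ordered against Dnmt3a or Dnmt3b, since its libraries overlapped with those of each: 28.1 and 31.9 for Dnmt3a, 33.0 and 25.6 for Tet2, 17.2 and 27.8 for Dnmt3b. Dnmt3a lay above Dnmt3b in both. In KO the order was Uhrf1 (940), Dnmt1 (865), Tet3 (248), Dnmt3a (93.6), Tet2 (57.1), Dnmt3b (34.3) and Tet1 (1.11). Uhrf1 and Dnmt1 changed places, by a margin smaller than the gap between the Uhrf1 libraries of either line; Uhrf1 per Dnmt1 message was 0.802 and 0.933 in WT and 1.01 and 1.17 in KO.

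The make-up of each enzyme class also differed between the lines. Of the summed DNA methyltransferase level per kilobase, Dnmt1 made up 96.8% and 96.1% in WT and 86.7% and 87.6% in KO. The share of Dnmt3a was 1.98% and 2.11% in WT and 10.1% and 8.79% in KO, and that of Dnmt3b was 1.21% and 1.83% against 3.27% and 3.63%. The sum itself was 1418 and 1513 per kilobase in WT and 996 and 990.4 in KO. This lower sum mostly restates Dnmt1, while both de novo members lay higher in KO. Part of their larger share comes from the smaller sum. Dnmt3a per Dnmt1 message was 0.0204 and 0.0220 in WT and 0.116 and 0.1003 in KO, a 5.10-fold higher mean ratio.

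Among the TET enzymes Tet3 was the main message in every library, with 74.7% and 79.1% of the summed level per kilobase in WT and 81.4% and 80.3% in KO. Tet2 held 22.3% and 18.6% in WT and 18.1% and 19.4% in KO, and these ranges overlapped. Tet1 held 2.99% and 2.26% of the class in WT and 0.426% and 0.276% in KO. The summed TET level was 148 and 138 per kilobase in WT and 361 and 251 in KO. Tet3 per Tet1 message was 25.0 and 35.0 in WT and 191 and 291 in KO. These shares restate the same reads and carry no test of their own.

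The members differed sharply in their 3′ UTRs, and miR-29 sites were the clearest difference. RefSeq's table for GRCm38.p6 gives 3 mature miR-29 sequences (miR-29a, miR-29b and miR-29c) with the same seed, bases 2 to 8, shown here in capitals for miR-29a because this seed matched more often in the members than in most genes.
mmu-miR-29a-3p: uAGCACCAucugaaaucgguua
The matching site in a message is TGGTGCT, searched on the sense strand of 3′ UTRs, taking for each gene the longest one annotated (GENCODE M21, GRCm38). A match describes these letters and does not show binding, and microRNA levels were not analysed here. Tet3 held 8 sites, Tet1 7, Dnmt3a 5, Tet2 5, Tdg 3 and Dnmt3b 1, whereas Dnmt1 and Uhrf1 held none. An example from each gene is printed with the site in capitals, and for Tet3 also the closest pair of sites, which start 13 bases apart.
Dnmt3a, chr12:3908992-3909012, plus strand: aatgtacTGGTGCTttctgtc
Dnmt3b, chr2:153686620-153686640, plus strand: cccggcaTGGTGCTcatgttc
Tet1, chr10:62812203-62812223, minus strand: tagagtcTGGTGCTttccccc
Tet2, chr3:133466167-133466187, minus strand: cattaaaTGGTGCTacaaatg
Tet3, chr6:83367978-83367998, minus strand: tgctctgTGGTGCTtttgccc
Tet3, chr6:83367010-83367030, minus strand: tgctgtgTGGTGCTggagcct
Tet3, chr6:83366997-83367017, minus strand: tggagccTGGTGCTgtagtag
Tdg, chr10:82649670-82649690, plus strand: ttttccaTGGTGCTacagaca

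Across the 11312 tested genes with an annotated 3′ UTR, 16.2% held at least 1 miR-29 site, 0.522% at least 3 and 0.0884% at least 5. The last share is 10 genes, and 4 of them are Tet3, Tet1, Dnmt3a and Tet2. Long 3′ UTRs hold more sites of any kind, and those of Tet1 (7962 bases), Dnmt3a (6696) and Tet3 (5669) are far above the median of 1210 bases. Among genes with a 3′ UTR of 0.8 to 1.25 times the same length, however, as many sites were found in 0 of 504 for Tet3, in 0 of 190 for Tet1, in 1 of 1554 for Tet2 and in 3 of 321 for Dnmt3a. For Dnmt3b, 239 of 1835 such genes held a site, and for Tdg, 5 of 1921 held as many as its 3. Per kilobase of 3′ UTR the density was 1.64 sites in Tet2, 1.44 in Tdg, 1.41 in Tet3 and 0.879 in Tet1. It was 0.751 in Dnmt3b, from 1 site, and 0.747 in Dnmt3a, against 0.115 over all tested genes. The 3′ UTRs of Dnmt1 and Uhrf1 have only 312 and 984 bases, and 4.24% of genes with a 3′ UTR of a length like that of Dnmt1 held one.

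**Figure D3:**
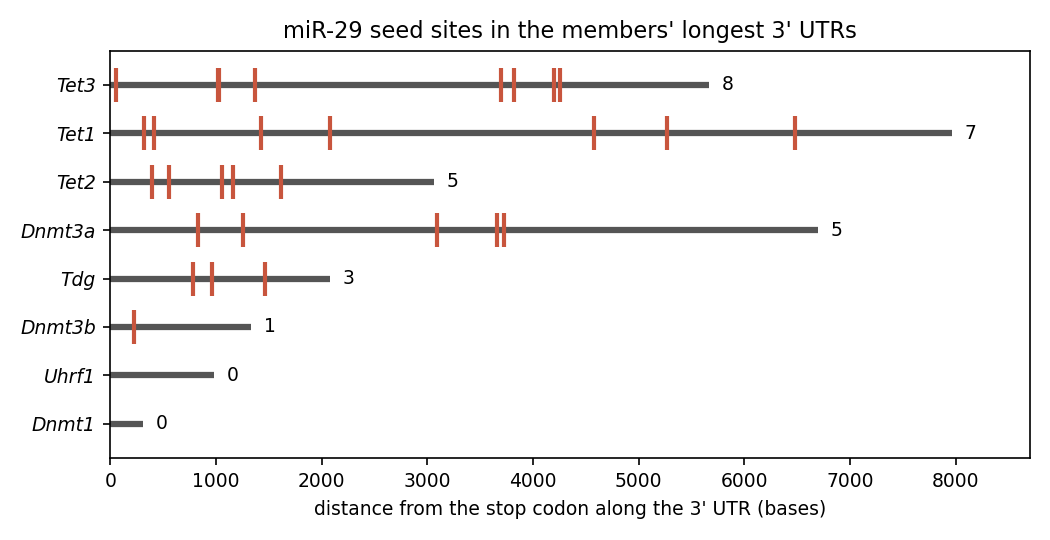
The longest annotated 3′ UTR of each member drawn to scale from the stop codon (grey bars, in bases), with the position of each miR-29 seed site (red marks) and the number of sites at the right. Tet3 has 8 sites, 2 of which merge into 1 mark near position 1019, and Uhrf1 and Dnmt1 have none.

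Site number and the change in KO did not run in parallel over the members. Dnmt3a and Tet3, with 5 and 8 sites, rose, and Tet2, with 5, was 1.95-fold higher, but Tet1, with 7, was 3.39-fold lower. Both members without a site, Dnmt1 and Uhrf1, were lower without passing the size rule. The other 6 tested genes with at least 5 sites had ratios from 0.834 to 1.20. Over all tested genes, the share at least 2-fold higher in KO was 8.80% with no site, 9.03% with 1 site, 12.8% with 2 and 20.3% (12 of 59) with 3 or more, with median log2 ratios of -0.01, 0.04, 0.03 and 0.15. Within the last group, the 10 genes with 5 or more sites had a median log2 ratio of 0.03. The 2 of them at least 2-fold higher were Dnmt3a and Tet3. These groups include the members and were not matched on UTR length or expression.

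Of the 15 microRNA families searched, no other gave the members as many sites. All sites together numbered 24 in Tet3, 16 in Dnmt3a, 16 in Tet1, 11 in Tet2, 10 in Tdg, 2 in Uhrf1, 1 in Dnmt1 and 1 in Dnmt3b. Tet3 also held 4 miR-15 and 4 miR-23 sites (TGCTGCT and AATGTGA), as many as 4.37% and 0.992% of genes with a 3′ UTR of like length. A miR-26 site (TACTTGA) occurred at 2 places in each of Tet1, Tet2 and Tet3. The single site in Dnmt1 was for miR-148 (TGCACTG), a family whose sites were also found in Uhrf1 and Tdg. It is printed because it is the only match of any searched family in the maintenance enzyme.
Dnmt1, chr9:20907485-20907505, minus strand: ccccacgTGCACTGatgtttt

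Of 11 tested partners of the maintenance enzymes, 0 were higher and 1 was lower, beside 8.92% and 8.56% of all tested genes, and the median log2 ratio was -0.09, against -0.01 over all tested genes. The lower one was 2810417H13Rik, the PCNA-associated factor, at 2762 and 3081 normalised reads in WT and at 820 and 1093 in KO. It was 3.06-fold lower, with an adjusted p of 2.78e-04 in the authors' deposited table. Hells, a chromatin remodeller needed for methylation, had a ratio of 0.735, and the ratio of Usp7, a deubiquitinase that binds DNMT1, was 0.975. Ratios above 1 were those of Pcna (1.43), Uhrf2 (1.38), Lig1 (1.33) and Hdac1 (1.13). Both KO libraries lay above WT in 3 partners and below it in 4, beside 30.4% and 28.8% of all tested genes. The 16 S phase and proliferation genes gave 0 calls by size, beside 8.92% and 8.56% of all tested genes. By the authors' adjusted p they also gave 0, beside 5.56% higher and 5.34% lower. Both KO libraries lay above WT in 6 of the 16 and below it in 2, beside 30.4% and 28.8%. Their ratios ran from 0.681 (Gins2) to 1.43 (Pcna, the replication clamp). Mki67, a marker of cycling cells, had a ratio of 0.991.

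Of 15 de novo partners and histone enzymes that guide them, 14 were tested. By size 0 were called, beside 8.92% of all tested genes higher and 8.56% lower. The authors' adjusted p also called 0, beside 5.56% higher and 5.34% lower. The 14 genes had a median log2 ratio of 0.03. Their ratios ran from 0.552 for Nsd1, which methylates histone H3, to 1.61 for Zfp57, which binds methylated imprinted regions. Both were picked for naming after their values were seen. Dnmt3l, the germline cofactor of DNMT3A, was listed with a mean of 0.249 normalised reads over both lines.

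The TET regulators held the highest ratio among the listed genes. Cxxc5, a CXXC protein known to bind and restrain TET2, was at 95.4 and 72.9 normalised reads in WT and at 489 and 376 in KO. Both KO libraries were far above WT, and the ratio was 5.14 (4.35 to 6.11), with an adjusted p of 2.72e-06 in the authors' deposited table. It was the 1 gene higher among 7 tested of 9, with 0 lower, beside 8.92% and 8.56% of all tested genes. The list's median log2 ratio was 0.21. Ogt, the glycosyltransferase that binds TET proteins, had a ratio of 1.37. Idh1 and Idh2, which make the 2-oxoglutarate that TET enzymes consume, had ratios of 1.16 and 1.30 with overlapping libraries. Idh1 differed more between libraries of a line (1778 and 447 normalised reads in WT) than between the lines.

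Among the repair genes that act after oxidation or deamination of methylcytosine, 13 of 14 were tested. Of these, 2 were higher and 1 was lower, beside 8.92% and 8.56% of all tested genes. The median log2 ratio of the 13 was 0.02. Smug1, a uracil glycosylase, was at 282 and 303 normalised reads in WT and at 635 and 734 in KO. It was 2.34-fold higher (2.12 to 2.58), with an adjusted p of 0.0246 in the authors' deposited table. Gadd45a, a stress-induced gene linked to demethylation, was at 72.3 and 102 against 358 and 179, a ratio of 3.08 with an adjusted p of 0.260 in that table of the authors. Its relative Gadd45g was at 1076 and 1947 in WT and at 369 and 405 in KO, 3.91-fold lower with an adjusted p of 0.0777 in the authors' deposited table. Mbd4, a glycosylase for mismatched thymine, had a ratio of 0.937.

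The list of methyl-CpG-binding domain (MBD) and methyl-CpG zinc finger genes also holds Mbd3, Mbd5 and Mbd6, whose mammalian proteins do not read methylated CpG. Of its 9 genes, 0 passed the size rule, beside 8.92% of all tested genes higher and 8.56% lower. The median log2 ratio of the list was 0.01. The authors' adjusted p called 1 of the 9 lower, beside 5.34% of all tested genes. This was Mbd3 of the NuRD complex, named after its values were seen. It was at 3268 and 2981 normalised reads in WT and at 1510.4 and 1779 in KO, a ratio of 0.526 with an adjusted p of 0.0980 in the authors' deposited table. Mbd2, which binds methylated CpG, had a ratio of 1.53. Of 12 methyl donor genes, 0 were higher and 1, Cbs, was lower, beside 8.92% and 8.56% of all tested genes. The 12 had a median log2 ratio of 0.11. Cbs, which drains homocysteine from the cycle, was at 25.1 and 85.2 in WT and at 19.3 and 32.8 in KO. Its libraries overlapped, the authors' deposited table lists an adjusted p of 0.951, and it was not called after leaving out either the shallower WT or the deeper KO library, after scaling by total reads, or at a filter of 50.

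Most of the listed germline genes that promoter methylation keeps silent in somatic cells were near 0 in both lines. Of 18 on the list, 7 had no reads, 9 more had a mean of at most 11.8 normalised reads, and 2 were tested. Of these 2, 0 were higher and 1 was lower by size, beside 8.92% and 8.56% of all tested genes. Sycp1, of the synaptonemal complex, was at 36.6 and 53.8 in WT and at 71.7 and 61.7 in KO, a ratio of 1.48. Brdt, a testis bromodomain gene, was at 48.2 and 21.3 in WT and at 16.6 and 10.9 in KO. It was 2.53-fold lower by size, with an adjusted p of 0.569 in the authors' deposited table, and it was not called without the deeper WT library or at a filter of 50.

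**Figure D4:**
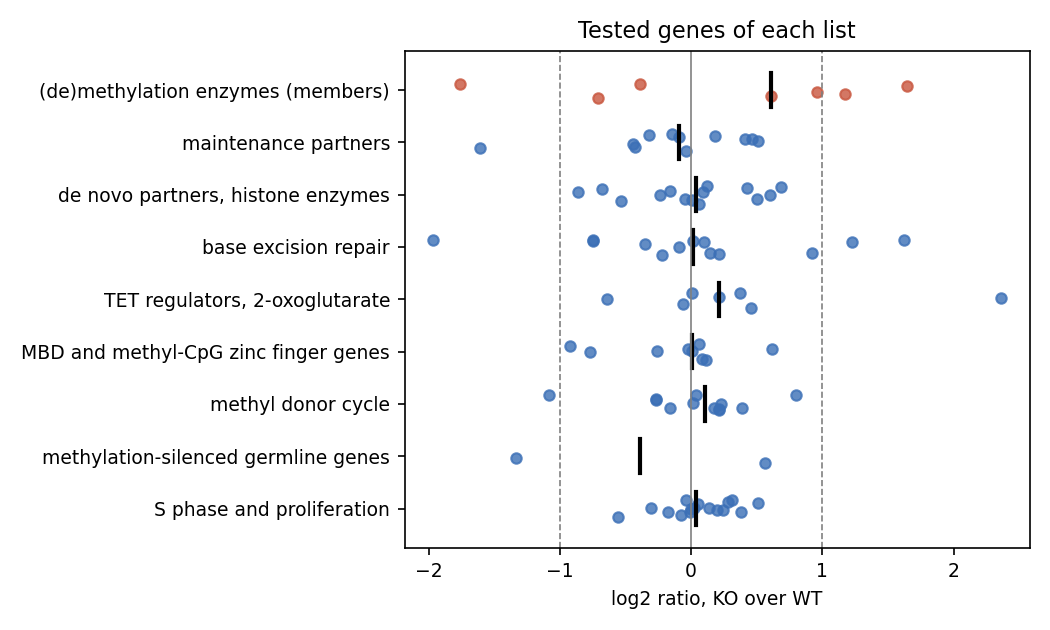
Log2 ratio of KO over WT for each tested gene of the enzyme set (red) and of the 8 lists of related genes (blue), with the median of each list as a black bar and dashed lines at 2-fold. The enzymes spread from -1.76 to 1.64 and the repair genes from -1.97 to 1.62, and the TET regulators reach 2.36. The S phase and proliferation genes all lie within 2-fold.

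The genes whose pattern over the 4 libraries was most like that of Dnmt3a, among 8659 genes with a mean of at least 200 normalised reads, were Rab11fip1, B4galt5 and Uhmk1. Their Euclidean distances of centred log2 values were 0.0502, 0.0525 and 0.117, and their ratios were 3.05, 3.05 and 3.15. For Tet1 the nearest were Cyp26b1, Sorbs2 and Hipk2, at distances of 0.165, 0.190 and 0.204 and with ratios of 0.341, 0.323 and 0.297. With only 4 libraries, this likeness mostly restates the ratio and the gap between libraries of a line.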

How the data were processed

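PolyA RNA of both lines was sequenced as paired reads; TopHat 1.4.0, DESeq 1.10.1 and the build mm9 are named in the submitters' processing notes, without role or order. How reads were counted, and on which annotation, is not given in the sources used here. The authors deposited for each gene, per the file headers, a signal (the mean of size-factor-normalised reads in conditions A and B), a fold ratio, its log2 value, a p-value and an adjusted p-value. Condition A was taken to be WT, since the comparison's title names WT first, and every direction rests on that.

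Whole reads of 2 libraries per line were recovered from the deposited means (tolerance 1e-08), for every gene with 1 solution. The size rule used a minimum mean of 20 normalised reads, 2-fold and a 95% exact interval. limma 3.58.1 (R 4.3.3, with trend) was fitted over all tested genes on log2(normalised reads + 1), a scale on which the added 1 can shrink changes of low genes. Python 3.11.15 with scipy 1.17.1 gave the intervals. The recovery of reads, the size rule and the limma fit were tested on simulated data. Alternatives were the fold, filter, scaling, pseudocount, test and omission of each library.

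The members and the 8 lists were chosen with earlier results of these data known. Named genes were all members, list genes past the size rule, the 3 genes nearest in pattern to the members of highest and lowest ratio, and Dicer1; others were named as background after their values were seen. Sites and transcript lengths came from GENCODE M21 (GRCm38), matched by symbol for 22772 of 23227 genes; the table holds no coordinates, so builds were not mixed. Of 16 microRNA families planned, miR-143 was not analysed here. Levels of proteins and DNA methylation were not analysed here, and some genes of the lists are not reported here by name.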

Additional observations from a re-analysis of the deposited data

How the results depend on the processing

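The direction of each tested member held under both scalings and without each library. Omitting 1 library could not reverse it, since the WT and KO libraries of no tested member overlapped. The scalings moved the median of all tested genes by 0.06 (total reads) and -0.06 (upper quartile) on the log2 scale. The smallest log2 change of a tested member was -0.39 (Uhrf1), so such shifts could not reverse a direction either. At 1.5-fold the counts rose to 4 members higher and 2 lower, against 2 and 1. Of all tested genes, 2030 and 2092 were called, against 1044 and 1002 (8.92% and 8.56%). Of the 103 list genes, not all of which were tested, 8 and 11 were called, against 3 and 4. Leaving out each library gave ratios from 2.90 to 3.34 for Dnmt3a and from 0.183 to 0.407 for Tet1. The ratios of Tet3 (1.83 to 2.67) and Tet2 (1.66 to 2.23) lay on both sides of 2-fold. Without the filter 1571 genes were lower. At a filter of 50, 788 of all tested genes were lower, with 0 members and 2 list genes among them. The authors' adjusted p gave 0 members lower and 651 and 625 of all genes. limma gave 0 members lower at either pseudocount, with 540 and 485 genes at 1 and 541 and 500 at 5. The labels pair no libraries. A limma fit with the depth rank of the libraries as a replicate block, a pairing taken from the data and added after seeing them, gave 3 members higher (Dnmt3a, Tet2 and Tet3) and 2 lower (Dnmt1 and Tet1), 2164 and 2077 genes, and 10 and 11 list genes. Tet1 and Tdg had the fewest reads of the members, at most 66 in a library. Whether depth or shared sequence accounts for the low count of Tdg was not tested.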
